A study of Drosophila melanogaster with 2 samples.

Results

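Long non-coding RNA genes were compared with coding genes in mRNA from adult fruitflies (Drosophila melanogaster). The members were the 2380 genes whose FlyBase symbol begins with lncRNA: (1890 genes) or asRNA: (490 genes, named for lying antisense to another gene), out of 17698 genes in the table. They were set beside 13976 comparison genes, which are all other genes outside the mitochondrial genome whose symbol holds no colon and does not begin with mir-. Symbols and, for the comparison genes, the mitochondrial location chose both groups. No level enters this rule, though it was set with earlier results of these data known. The series holds 1 mRNA library and 1 small RNA library from adults, and neither has a replicate. Neither the labels nor the paper state the strain, the sex or the number of flies behind the mRNA library. No treatment or mutant allele is named in the labels.

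Long non-coding RNAs are transcripts without a long open reading frame. Some act as RNA, as roX1 and roX2 do in the male dosage compensation complex, and some are primary transcripts from which miRNAs or piRNAs are cut. For a few, the act of transcription near another gene is what is known to matter. Antisense RNAs are transcribed from the strand opposite a coding gene and can share bases with its mRNA. Most long non-coding genes of the fruitfly carry only a CR number and have no described function.

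RefSeq annotates all 1890 lncRNA: genes as lncRNA and all 490 asRNA: genes as antisense RNA. Among the comparison genes it annotates 13669 as protein-coding, 276 as pseudogenes, 24 as gene segments and 7 as lncRNA, so that the comparison class is almost but not wholly coding. Levels are the authors' TPM (a value already divided by transcript length and scaled to the same sum in every library) summed over the transcripts of a gene. The deposited counts summed to 26179479 reads. At this depth 1 TPM equals 16.9 reads per 1000 bases of transcript, or 12.1 reads for a member of the median span of 713.5 bases. The library held transcripts of adult organs of both sexes, with the yolk protein gene Yp1 at 913.5 TPM, the sperm gene Mst87F at 933.9 TPM, the seminal fluid gene Acp36DE at 629.1 TPM and the eye opsin ninaE at 1671 TPM. Other adult markers were lower, with the flight muscle actin gene Act88F at 23.6 TPM, the chorion genes Cp15 and Cp36 at 15.6 and 7.64 TPM and the neuronal gene elav at 4.82 TPM. The larval serum gene Lsp1alpha stood at 0.09 TPM and the larval cuticle gene Lcp1 at 0.

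Long non-coding genes were expressed far below the comparison genes. The median was 0.83 TPM over all 2380 members (95% order-statistic interval 0.74 to 0.91) and 21.8 TPM over the comparison genes (interval 21.0 to 22.5), a ratio of 26.3. In RNA from whole animals, few expressing cells and little RNA per cell cannot be told apart. The lower and upper quartiles were 0.16 and 2.58 TPM for members and 3.84 and 55.8 TPM for comparison genes. Only 61 members (2.56%) stood above the comparison median, and 420 (17.6%) stood above the comparison lower quartile. The highest member ranked 224th among the 16356 genes of both classes, and 14 members were among the 1000 highest genes. Genes are not replicates, so no p is given, and all intervals cover counting error or the choice of genes and not the variation between flies.

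At least 1 TPM was reached by 1104 members (46.4%) and by 11972 comparison genes (85.7%), beside 75.9% of all genes in the table. Any count was found for 1934 members (81.3%) against 13359 comparison genes (95.6%) and 90.7% of all genes. At 10 TPM or more stood 163 members (6.85%) against 8880 comparison genes (63.5%) and 51.9% of all genes, and 16 members (0.672%) reached 100 TPM, as did 1697 comparison genes (12.1%). The ratio between the shares of the 2 classes thus grew with the threshold. The 3 members just under 1 TPM were listed at 0.98, 0.99 and 0.99 TPM and the 3 just above it at 1 TPM each. A count of 0 was listed for 446 members (18.7%), with a median span of 539 bases. For a transcript of that span, 3 reads, the limit that a count of 0 allows, equal 0.329 TPM. A further 691 members (29.0%) rested on 1 to 9 reads, so their single values are uncertain.

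**Figure D1:**
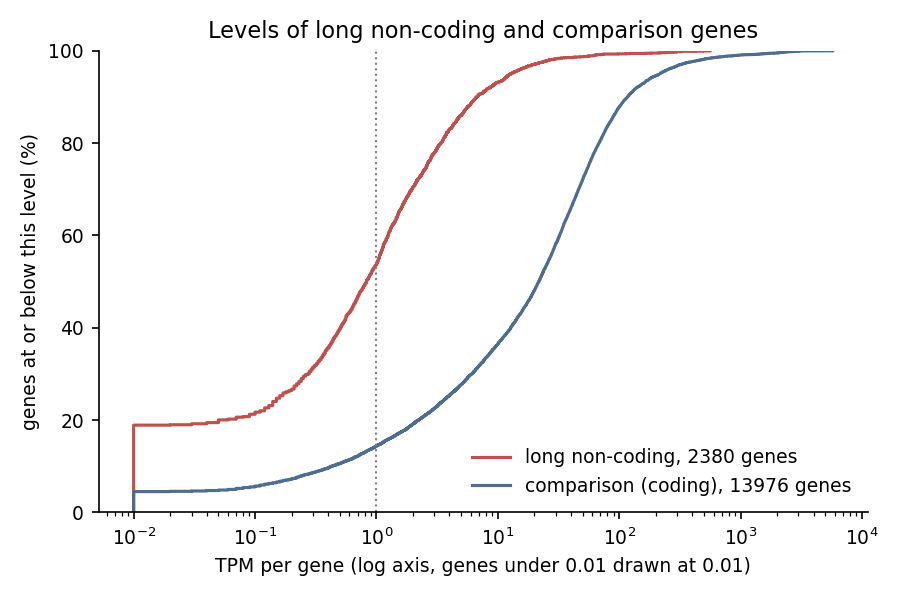
Cumulative share of genes (vertical axis, percent) at or below a given level (horizontal axis, TPM per gene, log scale) for the 2380 long non-coding genes in red and the 13976 comparison genes in blue, with a dotted line at 1 TPM. The red curve lies to the left throughout, and it crosses the middle of the axis at 0.83 TPM where the blue curve does so at 21.8 TPM.

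Members held 11109 TPM in all, 1.11% of the library, and 201370 reads, 0.769% of all counts (95% exact binomial interval 0.766 to 0.773%). Comparison genes held 93.9% of TPM and 95.2% of counts. The members' level was concentrated in few genes. The 10 highest members held 31.4% of the members' summed TPM and the 100 highest held 63.6%, whereas the 10 and 100 highest comparison genes held 4.19% and 24.9% of theirs. It took 33 of 2380 members and 592 of 13976 comparison genes to reach 50% of each sum. Because the classes differ in size, the same number of genes is a larger fraction of the members. These shares therefore overstate the contrast at like fractions of each class. The 5 highest comparison genes were dhd, a thioredoxin of the egg, at 5775 TPM, the translation factor gene eEF1alpha1 at 5691 TPM, the ribosomal protein genes RpL41 at 5326 TPM and RpL19 at 3434 TPM, and Mst57Db, a male-specific transcript, at 3230 TPM.

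lncRNA:CR42862, on chromosome arm 3L, was the most abundant long non-coding gene at 563.7 TPM (95% exact Poisson interval 558.9 to 568.6). With a leading transcript of 5479 bases and 52101 reads it alone held 25.9% of the reads of all members but 5.07% of their TPM. Of its 5 transcripts, the leading one stood at 499.0 TPM and the others between 3.52 and 31.1 TPM. It shares 1500 bases with CG33229 on its own strand, which stood at 71.0 TPM. lncRNA:CR9284 on arm 2R followed at 490.5 TPM and overlaps no comparison gene. Its nearest, tpr, lies 2497 bases away and was listed at 0 TPM.

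Of the 12 highest members, 9 lie on the X chromosome. lncRNA:CR32658 stood at 425.2 TPM and lncRNA:CR32657 at 332.0 TPM. They are 3568 bases apart and both lie within Ten-a, a teneurin gene on the same strand at 3.99 TPM. A second group lies on the minus strand, with lncRNA:CR32660 at 318.9 TPM, lncRNA:CR43157 at 211.4 TPM and lncRNA:CR32661 at 251.4 TPM, separated by gaps of 346 and 446 bases. lncRNA:CR32660 lies within Sclp, a gene at 29.1 TPM on its strand. These 5 genes and lncRNA:CR32652 at 295.5 TPM fall between positions 11917806 and 12412181 of the X, in Release 6 coordinates. The window around them holds 8 members with 1838 TPM, 16.5% of the members' total. Whether these neighbours share sequence, and so reads, was not tested, since no genome sequence was used here.

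The other X-linked leaders were lncRNA:CR32690 at 294.4 TPM, lncRNA:CR34335 at 277.9 TPM and lncRNA:CR42767 at 220.9 TPM. lncRNA:CR32690 lies 2 bases from Ypel, which stood at 22.8 TPM, and lncRNA:CR34335 lies within DIP-alpha, a cell surface receptor gene on the same strand at 2.63 TPM. The only leader of the first 12 with a described function was lncRNA:Hsromega at 238.4 TPM, a heat-inducible RNA that organises nuclear speckles. Its level was almost wholly in short transcripts. Both leading transcripts span 1888 bases and stood at 119.3 and 114.4 TPM. The 3 long forms, which retain the repeats that hold nuclear proteins, stood at 2.16, 1.88 and 0.47 TPM, and the remaining 2 transcripts at 0.15 and 0.10 TPM.

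The remaining members above 100 TPM were lncRNA:CR44389 at 181.2 TPM and lncRNA:CR44455 at 163.1 TPM, both on 2R and clear of comparison genes, lncRNA:CR43994 at 124.1 TPM opposite rols at 2.48 TPM, and lncRNA:CR45013 at 113.5 TPM opposite Pde1c at 16.1 TPM. The rest of the 25 highest members lay between 62.4 and 98.1 TPM. Among them lncRNA:CR42491 at 73.7 TPM lies within RpL22, a ribosomal protein gene on its strand at 1244 TPM. lncRNA:noe at 62.8 TPM lies within blot on its strand, at 80.6 TPM. Reads of such members and of the gene on the same strand may not be told apart. This was not tested, here or for the higher leaders that share bases with a gene on their strand. lncRNA:CR30055 at 62.8 TPM lies opposite Sin3A, a corepressor gene, at 116.5 TPM. Further members of this range were lncRNA:CR45113 at 98.1 TPM, lncRNA:CR32368 at 74.8 TPM, lncRNA:CR43264 at 65.6 TPM opposite CG15765 at 5.36 TPM, and lncRNA:CR43684 at 64.9 TPM within Sytbeta at 4.13 TPM. Of these 25 genes, 17 have 1 transcript, beside 86.7% of all members. A span under 1000 bases was found for 17 of the 25. Of all members, 5.42% span up to 300 bases, 22.4% above 300 and up to 500, and 40.1% above 500 and up to 1000. The median span of all members is 713.5 bases. No comparison gene overlaps 11 of the 25, while 8 overlap one on their own strand and 6 on the opposite strand. Over all members, 56.5% overlap none, 8.11% overlap on their own strand only and 33.9% on the opposite strand only. Of the 16 at 100 TPM or more, 9 overlap none.

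**Figure D2:**
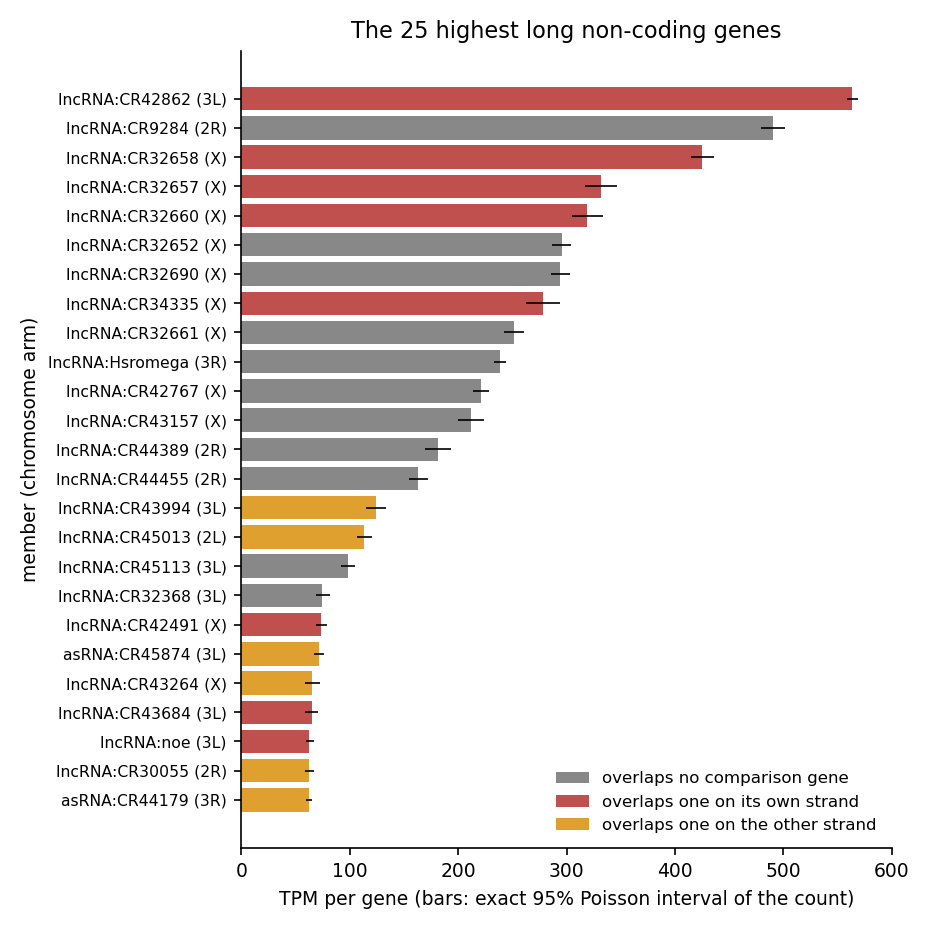
TPM per gene (horizontal axis) of the 25 highest long non-coding genes, with the chromosome arm in brackets; lines are exact 95% Poisson intervals of the count, and colours give overlap with a comparison gene on no strand (grey), the same strand (red) or the other strand (yellow). The bars fall from 563.7 TPM for lncRNA:CR42862 to 62.4 TPM for asRNA:CR44179, and 11 of the 25 genes lie on the X.

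Among the 37 members with a name other than a CR number, 23 reached 1 TPM (62.2%, beside 46.1% of the 2343 with a CR number). lncRNA:alphagamma-element:CR32865, at 0.13 TPM, was counted with the CR numbers. At 10 TPM or more stood 5 of the 37 and 158 of the 2343, a larger share of the named members. The medians were 1.25 and 0.82 TPM. Both RNAs of the dosage compensation complex, which binds the single X of males, were detected. lncRNA:roX2 stood at 14.3 TPM from 192 reads, spread over 5 of its 6 transcripts at 0.62 to 4.60 TPM, and lncRNA:roX1 stood at 3.80 TPM from 255 reads, led by 1 transcript at 2.06 TPM. In 3 RNAs of the bithorax complex, which patterns the abdomen, lncRNA:iab8 stood at 3.73 TPM, lncRNA:bxd at 1.04 TPM and lncRNA:iab4 at 0.06 TPM. lncRNA:bxd shares 594 bases with CG31275 on its strand, at 39.1 TPM, and whether they share reads was not tested. Of the 12 transcripts of lncRNA:iab8, 2 carried 2.76 and 0.84 TPM and 7 had no reads.

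Of 4 RNAs linked to the nervous system, lncRNA:CRG, needed for normal locomotion, stood at 8.82 TPM from 399 reads, and lncRNA:sphinx, known from male courtship, at 1.54 TPM from 14 reads. All 2669 bases of lncRNA:CRG lie within CASK on its strand, at 40.8 TPM. Reads of these genes may not be told apart, which was not tested. lncRNA:cherub, known from neural stem cell tumours, stood at 0.47 TPM, and lncRNA:yar, linked to sleep, at 0.08 TPM from 2 reads. lncRNA:flam, the piRNA cluster of somatic ovary cells, stood at 1.52 TPM from 26 reads, all in 4 of its 10 transcripts. Of 15 members whose names begin with TS, given to RNAs of the testis, 14 had reads and 6 reached 1 TPM (40%, beside 46.4% of all members). The highest was asRNA:TS15 at 10.6 TPM, with lncRNA:TS14 at 2.73 TPM next. Their median was 0.56 TPM, beside 0.83 TPM for all members. lncRNA:TS2 had no reads. Of the other named members, lncRNA:mimi stood at 25.4 TPM, lncRNA:marge at 6.44 TPM, lncRNA:Yu at 5.65 TPM, asRNA:bsAS at 3.14 TPM, lncRNA:dntRL at 2.85 TPM, asRNA:Eig63F-2 at 1.48 TPM, lncRNA:Irar at 1.25 TPM, asRNA:ASTR at 0.81 TPM and lncRNA:acal, known from dorsal closure of the embryo, at 0.05 TPM. The 7 host genes of small nucleolar RNAs listed, Uhg1 to Uhg5, Uhg7 and Uhg8, carry no prefix and so fell into the comparison class. They stood between 3 TPM for Uhg7 and 114.8 TPM for Uhg4.

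Antisense genes reached 1 TPM more often than the other members. Of 490 asRNA: genes, 316 did so (64.5%, 95% exact binomial interval 60.1 to 68.7%), against 788 of 1890 lncRNA: genes (41.7%, interval 39.5 to 44.0%), and the medians were 1.62 and 0.67 TPM. No asRNA: gene reached 100 TPM, whereas 16 lncRNA: genes did. The highest was asRNA:CR45874 at 71.7 TPM, whose 873 bases lie wholly opposite the ribosomal protein gene RpS9 at 1964 TPM. asRNA:CR44179 stood at 62.4 TPM, while CG5112, with which it shares 1803 bases, was listed at 0 TPM. asRNA:CR45926 at 56.0 TPM lies opposite Nap1, a histone chaperone gene at 645.1 TPM. asRNA:CR44370 at 42.3 TPM lies opposite Fs, a follistatin gene, at 4.52 TPM, and asRNA:CR45822 at 41.5 TPM opposite the insulator protein gene CTCF at 30.7 TPM. The opposite gene was thus far above in 2 of these 5 pairs and below in 3.

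A comparison gene lies on the other strand of 483 asRNA: genes, with a median of 28.0 TPM for the highest such gene. The asRNA gene was above it in 59 pairs (12.2%). Among the 306 pairs with the asRNA gene at 1 TPM or more and its partner above 0, the median ratio of asRNA to partner was 0.113 and the asRNA gene was higher in 41. The share of asRNA genes at 1 TPM or more moved with the partner's level. It was 37.3% of 51 with a partner under 1 TPM, 61.2% of 98 at 1 to under 10 TPM, 67.7% of 269 at 10 to under 100 TPM and 76.9% of 65 at 100 TPM or more. The medians over these classes were 0.78, 1.49, 1.78 and 2.46 TPM. Across the 483 pairs, which come from 1 library, Spearman's coefficient was 0.219. Strand-specific counting is not stated by the authors, and reads of a gene and its antisense partner may then not be told apart. Its part in these values was not tested.

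**Figure D3:**
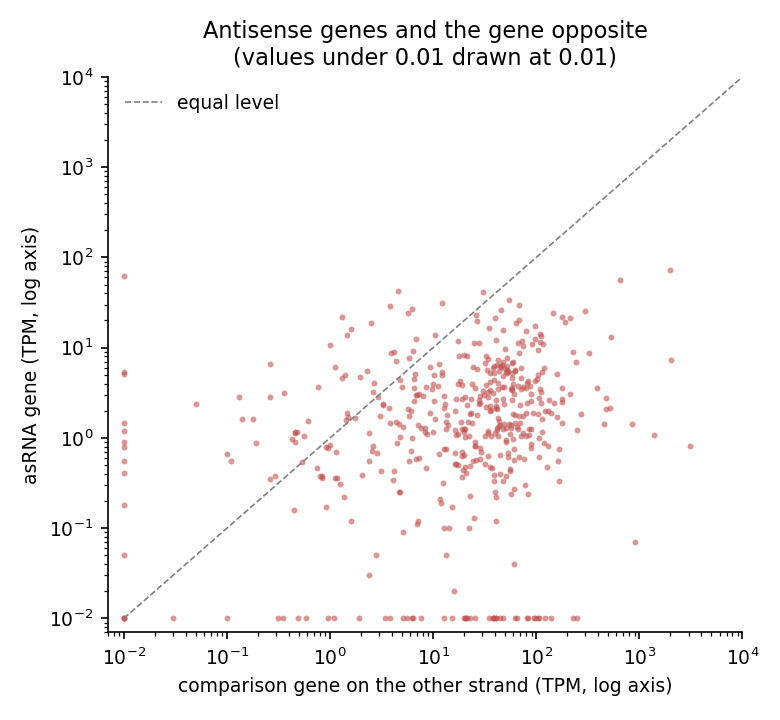
Level of each of 483 asRNA genes (vertical axis, TPM, log scale) against the highest comparison gene on the other strand (horizontal axis, TPM, log scale), with values under 0.01 drawn at 0.01 and a dashed line of equal levels. In 59 pairs the point lies above the line, among them asRNA:CR44179 at the left edge, whose partner was listed at 0.

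The lncRNA: genes that overlap a comparison gene were also the more often detected. Of 1890 such genes, 1341 overlap none, and 479 of these (35.7%) reached 1 TPM, with a median of 0.48 TPM. With a gene on the opposite strand only, it was 181 of 345 (52.5%, median 1.06 TPM), and with a gene on their own strand only, 117 of 189 (61.9%, median 1.48 TPM). Of 360 lncRNA: genes with a gene opposite, the share at 1 TPM or more was 50% to 55.6% over the same 4 classes of the partner's level. Spearman's coefficient across these 360 pairs was 0.0545. Overlap was counted over whole gene spans, introns included, so a member inside an intron counts as overlapping. Reads on bases shared with a gene on either strand may not be told apart, and their part in these shares was not tested. Members without any overlap (1344, with the 3 such asRNA: genes) reached 1 TPM in 35.8% and had a median of 0.49 TPM, 44.5 times below that of the comparison genes.

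Long non-coding genes are shorter than the comparison genes, with a median span of the longest transcript of 713.5 against 2136.5 bases, but the gap in level was present at like spans above 300 bases. In the class above 500 and up to 1000 bases, 468 of 955 members (49.0%, 95% exact binomial interval 45.8 to 52.2%) and 1718 of 2245 comparison genes (76.5%, interval 74.7 to 78.3%) reached 1 TPM, with medians of 0.95 and 14.1 TPM. Above 2000 and up to 5000 bases the shares were 44.7% of 206 and 89.7% of 3926, with medians of 0.79 and 27.0 TPM. Among transcripts of 300 bases or less, the intervals overlapped, at 40 of 129 members (31.0%, interval 23.2 to 39.7%) and 32 of 85 comparison genes (37.6%, interval 27.4 to 48.8%), and the members' median was the higher at 0.35 against 0.13 TPM. Span includes introns. For genes with 10 reads or more, the length without introns of the leading transcript could be recovered, to within rounding, from its count and FPKM. Its median was 778.9 bases in 1243 members and 1686 bases in 12565 comparison genes. Among those above 500 and up to 1000 bases the medians were 2.49 TPM for 600 members and 29.7 TPM for 2487 comparison genes.

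**Figure D4:**
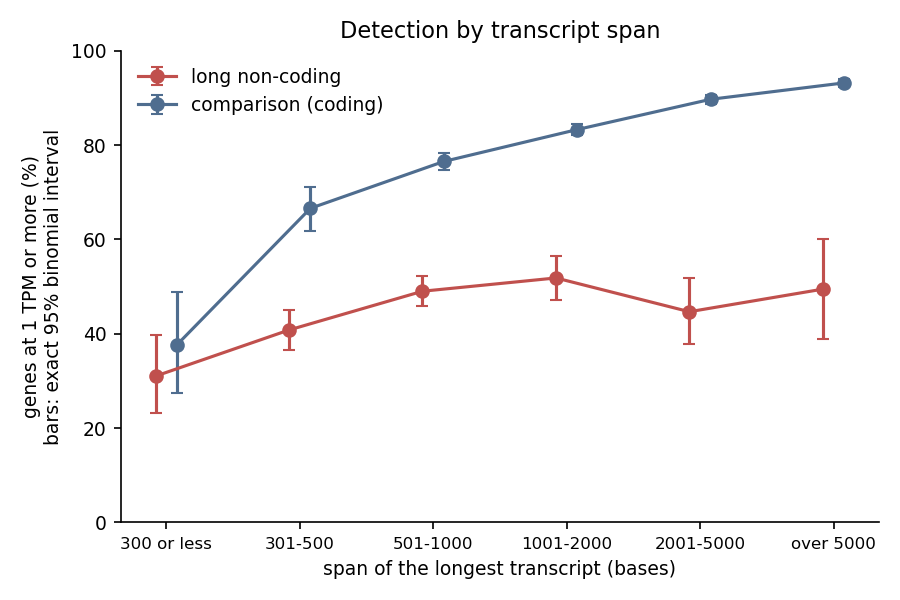
Share of genes at 1 TPM or more (vertical axis, percent, with exact 95% binomial intervals) by span of the longest transcript (horizontal axis, bases) for long non-coding genes in red and comparison genes in blue. The comparison genes climb from 37.6% to 93.2% and the long non-coding genes stay between 31.0% and 51.8%.

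The 5 longest members at 1 TPM or more differ in what they cover. lncRNA:CR32773 spans 223710 bases of the X at 1.91 TPM, and 12 comparison genes lie within or across it. lncRNA:CR44999, over 149629 bases, stood at 5.06 TPM, lncRNA:CR44833, over 107223 bases around ovo, at 9.56 TPM, and asRNA:CR44894, over 94235 bases, at 1.30 TPM. lncRNA:CR44833 overlaps 3 comparison genes and asRNA:CR44894 overlaps 4. lncRNA:flam, the second longest at 158841 bases and 1.52 TPM, overlaps none, and its nearest comparison gene, DIP1, lies 1742 bases away. Its transcript of that span had no reads, and its leading transcript was 767.7 bases long. The leading transcripts of the other 4 were also short without introns, at 1600, 2032, 445.2 and 2792 bases. Most members have 1 listed transcript, and their exon structure was not described here. A single transcript is listed for 2063 members (86.7%) and 6974 comparison genes (49.9%). Members with several transcripts reached 1 TPM in 62.5% of 317 genes, against 43.9% of those with 1. In the 198 of them at 1 TPM or more, the leading transcript carried a median of 88.9% of the gene's TPM, close to the 88.2% of 6574 comparison genes.

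By chromosome, members were detected most on the fourth, with 15 of 23 at 1 TPM or more (65.2%), and on 3R with 283 of 533 (53.1%). The share was 47.4% of 542 on 3L, 45.2% of 378 on 2R, 42.3% of 300 on the X and 41.6% of 603 on 2L, and the single member on the Y had no reads. Comparison genes ranged from 83.4% on 3L to 97.6% on the fourth, and reached 28.2% of 85 on the Y. Among members that overlap no comparison gene, 3R was again above the other large arms, at 42.7% of 281 against 30.2% to 37.1%. On the fourth it was 4 of 9 such members (44.4%). There 10 of the 23 members are asRNA: genes (43.5%), beside 14.9% to 25.1% on the large arms. The X held 12.6% of the members but 32.4% of their TPM, and 15.8% of the comparison genes with 15.0% of theirs. The 9 X-linked members at 100 TPM or more held 73.1% of the TPM of all members on that chromosome. Without them the X median was 0.69 TPM, beside 0.75 TPM with them.

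A miRNA gene lies inside a member on the same strand in 35 cases, with 50 miRNA genes, and 14 of these hosts (40%) reached 1 TPM, with a median of 0.29 TPM, beside 46.4% and 0.83 TPM for all members. Of the 19 hosts on the plus strand with a matched miRNA, 9 reached 1 TPM, with a median of 0.25 TPM. The 43 miRNAs that could be matched by name to the small RNA library, arms shared with another locus left out, were split by strand. Of 23 on the plus strand, 22 had reads, and of 20 on the minus strand 1 had. The source of this split was not tested, and 0 reads on the minus strand do not show that these miRNAs were absent. Hosts are therefore set beside their miRNAs for the plus strand only. The RPM given are scaled to the library as listed, with this split, and may be too high for that reason. lncRNA:CR46006, around miR-276a, stood at 1.03 TPM with 200419 RPM (the read count scaled to library size) of its miRNA. lncRNA:CR43650, around miR-8, stood at 1.81 TPM with 114786 RPM, and lncRNA:CR45361, around the muscle miRNA miR-1, at 0.15 TPM with 83208 RPM. lncRNA:CR43459, around miR-277 and miR-34, was the highest of the hosts of abundant miRNAs, at 4.21 TPM with 74254 RPM.

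lncRNA:let7C, the primary transcript of let-7, miR-100 and miR-125, which time development, stood at 1.02 TPM with 26813 RPM. lncRNA:CR45388, around miR-315, had no reads at all in the mRNA library, while its miRNA had 1356 RPM. lncRNA:Hsromega was the opposite case, with 238.4 TPM and 63.3 RPM of miR-4951. Over the 19 plus-strand hosts, Spearman's coefficient of host TPM with summed RPM was 0.414. TPM and RPM come from libraries of different kinds and are not compared in size. Drosha cuts the hairpin out of the host transcript, and its part in the host levels was not tested.

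**Figure D5:**
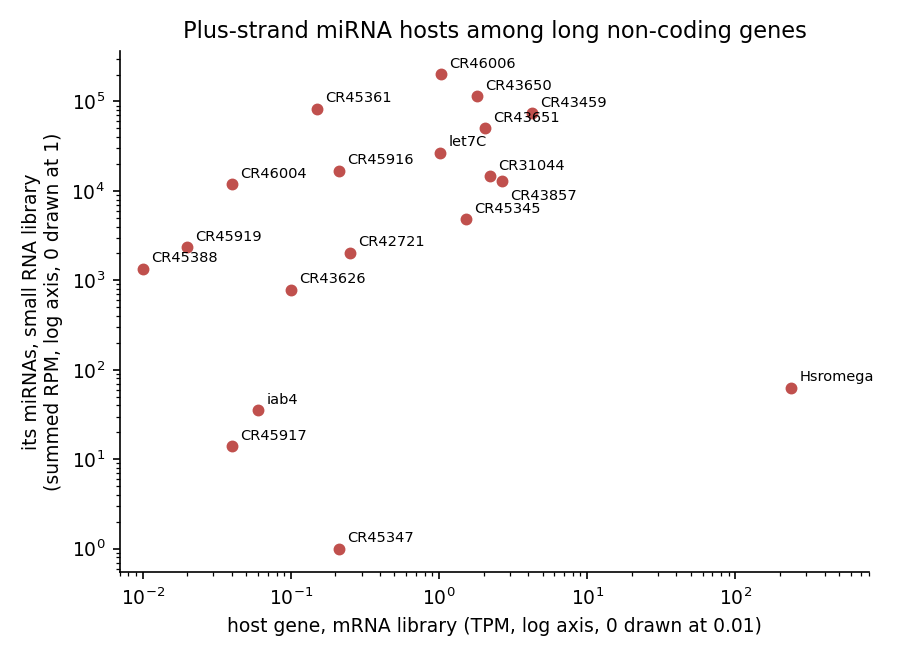
Summed level of the miRNAs inside each of 19 plus-strand host genes (vertical axis, RPM in the small RNA library, log scale, 0 drawn at 1) against the host's level (horizontal axis, TPM in the mRNA library, log scale, 0 drawn at 0.01). The 5 hosts with the most miRNA lie between 0.15 and 4.21 TPM, and lncRNA:Hsromega stands alone at the right with 238.4 TPM.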

How the data were processed

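The labels name 1 mRNA library and 1 small RNA library of adult fruitflies. For mRNA, the authors deposited estimated counts (whole numbers, not normalized), TPM and FPKM per transcript. The submitters' processing notes name CASAVA and HISAT2. Counting tool, strandedness, poly(A) selection and genome build: not given in the sources used here. For small RNA, the authors deposited raw counts and RPM per mature miRNA, from Cutadapt, trimmomatic and miRDeep2.

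Values were summed per gene (17698 genes, 34736 transcripts). Symbols came from a FlyBase name table (17560 genes) and annotation from the RefSeq table of Release 6, whose positions equalled the deposited ones for 2360 of 2380 members. Overlap meant at least 1 shared base. The threshold was 1 TPM. Transcript length was taken from count and FPKM, scaled so that transcripts without introns return their own span. With 1 library no test was run. Intervals are at 95%: exact Poisson or binomial intervals of reads cover counting error only, and those of medians and of shares of genes are taken over genes, which are not replicates. Named were the 25 highest members, the 5 highest asRNA genes, members with a name other than a CR number, the 5 longest at 1 TPM or more, the 5 highest comparison genes and the genes that overlap leaders; others, such as miRNA hosts and neighbours, were chosen after their values had been seen. Members and lists were chosen with earlier results of these data known. A planned description of promoter motifs was not made, because no promoter sequence was used here, and length classes use genomic span in place of transcript length. Summaries were tested on simulated data. Python 3.11.15, pandas 2.3.3, NumPy 2.4.6, SciPy 1.17.1 and matplotlib 3.10.9 were used.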

Additional observations from a re-analysis of the deposited data

How the results depend on the processing

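The order of both classes was the same under every alternative run, but its size was not. In place of 1 TPM, the share of members and of comparison genes was 81.3% and 95.6% at any count, 78.7% and 94.5% at 0.1 TPM, 60.5% and 89.4% at 0.5 TPM, 6.85% and 63.5% at 10 TPM, 52.2% and 89.9% at 10 counts, 34.2% and 82.6% at 1 FPKM, and 49.5% and 88.6% for spans of 1000 bases or more. At 1 TPM it was 35.8% for members without overlap, 41.7% for lncRNA: genes, 64.5% for asRNA: genes and 86.6% for protein-coding comparison genes. The ratio of the comparison median to the members' median, 26.3 as reported, was 44.5 without overlapping members, 32.5 for lncRNA: genes, 13.5 for asRNA: genes, 19.6 without genes at 0, 23.0 from the highest transcript and 57.3 from counts, which grow with transcript length. The members' share of the library, 1.11% as reported, was 0.769% by counts, 1.05% without lncRNA:CR42862, 0.762% without the 10 highest members and 0.510% without overlapping members. For comparison genes it was 95.2% by counts and 93.7% for protein-coding genes. By counts, the 10 highest members held 46.3% of the members' sum. Overlap over 50% or more of a member held for 38.1% of members. By the shortest transcript, 78.9% of comparison genes above 500 and up to 1000 bases reached 1 TPM. With any count, the share of members detected was 79.7% on the X, 77.3% on 2L, 81.0% on 2R, 80.3% on 3L, 87.6% on 3R and 91.3% on the fourth chromosome. Added after the data had been seen, any count gave a gap of 11.5 percentage points between asRNA: and lncRNA: genes, beside 22.8 points at 1 TPM, and 82.1% of members with 10 counts or more had a single transcript.

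No paired analysis was possible because each kind of library has 1 sample. No replicate was left out and no difference was tested. The 446 members at 0 and the 691 members with 1 to 9 counts carry wide counting intervals, and a count of 0 does not show that a gene is silent.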

Other observations

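The 1344 members that overlap no comparison gene were also described by their nearest comparison gene. At less than 500 bases from it, 116 of 311 members reached 1 TPM (37.3%), at 500 to under 1000 bases 55 of 171 (32.2%), at 1000 to under 5000 bases 151 of 463 (32.6%), and at 5000 bases or more 159 of 399 (39.8%). Under 500 bases, the members that follow a gene on their own strand had the highest share, at 29 of 61 (47.5%, median 0.89 TPM), and those head to head with a gene had 36 of 110 (32.7%, median 0.46 TPM). Among the members within 1000 bases of a gene, the share at 1 TPM or more was 24.0% of 50 where that gene was under 1 TPM, 33.1% of 136 at 1 to under 10 TPM, 37.6% of 234 at 10 to under 100 TPM and 41.9% of 62 at 100 TPM or more.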
